A study of Mus musculus with 3 samples.

Results

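Chemokine receptors are the surface receptors that leukocytes use to follow chemokine gradients into and within inflamed tissue. The transcripts of 9 of them, Cxcr3, Cxcr4, Cxcr5, Cxcr6, Ccr2, Ccr6, Ccr8, Cx3cr1 and Ccr9, were examined in leukocytes from the pancreatic islets of female non-obese diabetic (NOD) mice, a strain that develops spontaneous autoimmune diabetes. The 9 genes were picked by name from the 32285 genes of the count tables and all 9 were measured. The samples were 3 single-cell RNA libraries from 1 group of wild-type NOD females, each made from live CD45+ cells sorted from islets pooled from 2 to 3 mice at 15 to 16 weeks of age, without enrichment for any one cell type. The 3 libraries came from 2 independent experiments, but which library belongs to which experiment is not given in the sources used here. The design holds no second group of animals, so every comparison is between cell classes of the same islets. The fits gave each library its own level. The p-values set a class difference against a spread estimated from all classes of a fit over these 3 libraries.

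Chemokine receptors couple to inhibitory G proteins. Their activation turns on integrin adhesion and directed crawling before arrestins and RGS proteins end the signal. CXCR3 and its interferon-induced ligands guide effector T cells. CXCR6 binds the membrane-bound chemokine CXCL16 and is common on tissue-resident T cells, whereas CXCR4 holds lymphocytes near CXCL12-producing stroma. CXCR5 draws B cells and follicular helper T cells towards CXCL13, and CCR6, the receptor of CCL20, is found on B cells and on IL-17-producing T cells. CCR2 is the receptor by which monocytes leave the marrow, and CCR8 is typical of tissue regulatory T cells. CX3CR1 marks resident macrophages and cytotoxic effector T cells, and CCR9 directs lymphocytes and plasmacytoid dendritic cells to the gut.

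Cells were assigned to 5 classes by raw UMIs (unique molecular identifiers, each counting 1 captured RNA molecule) of lineage genes, none of which is a chemokine receptor. CD8 T cells carried Cd3e and at least 2 UMIs of Cd8a plus Cd8b1 without Cd4. CD4 T cells carried Cd3e and Cd4 without Cd8a, Cd8b1 or Foxp3, and regulatory T cells (Treg) carried Cd3e and Foxp3, the transcription factor that defines them. B cells carried at least 2 UMIs of Cd79a without Cd3e, and macrophages carried at least 5 UMIs of C1qa plus C1qb without Cd3e and with at most 1 UMI of Cd79a. Of 26142 cells with at least 1000 UMIs and under 10% mitochondrial UMIs, 3258 were CD8 T, 5858 CD4 T, 1671 Treg, 4936 B and 68 macrophage. Of these, 59 cells met both the CD8 T and the Treg rule and were counted in both, while 10410 cells met no rule. The macrophages numbered 31, 10 and 27 in the libraries of replicates 1, 2 and 3, so their values are the least precise.

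The summed level of 4 T-cell genes outside the rule (Cd3d, Cd3g, Trac, Trbc2) ranged from 3081 to 4099 CPM (the gene's UMIs over all UMIs of a class in a library, scaled to 1000000) in Treg across libraries and from 105 to 128 CPM in B cells. Treg genes (Il2ra, Ikzf2, Ctla4, Tnfrsf18) summed to 1880 to 2315 CPM in Treg and 741 to 985 CPM in CD4 T cells. Macrophage genes (C1qc, Adgre1, Csf1r, Cd68) summed to 1752 to 3293 CPM in macrophages and 6.76 to 25.3 CPM in CD4 T cells. The macrophages also carried monocyte genes (Ly6c2, Plac8, Chil3) at 328, 1134 and 148 CPM and endocrine genes (Ins1, Ins2, Gcg, Iapp) at 143, 7.93 and 1356 CPM in replicates 1, 2 and 3, with all 4 NK-cell genes at 0. B-cell genes (Cd79b, Ms4a1, Ebf1) summed to 1899 to 2140 CPM in B cells. They also summed to 202 to 486 CPM in Treg, 161 to 281 CPM in CD4 T cells and 74.5 to 178 CPM in CD8 T cells, with all 3 genes detected in each of these classes. The B class also carried plasma-cell genes (Jchain, Xbp1, Mzb1), at 3936, 888 and 2258 CPM in replicates 1, 2 and 3. The part of plasma cells in the receptor levels of this class was not tested. The libraries held 5844, 9537 and 11566 barcodes with 33851381, 74775394 and 80806452 UMIs. Pairs of libraries shared 12, 18 and 29 barcodes. The library of replicate 1 stood apart in the cycling genes Mki67 and Top2a, which summed to 306, 36.95 and 45.9 CPM in CD8 T cells, 217, 27.1 and 30.01 CPM in CD4 T cells and 350.4, 33.5 and 59.3 CPM in Treg of replicates 1, 2 and 3. Its endocrine genes were also higher in the T classes, at 85.1, 22.5 and 20.4 CPM in CD4 T cells, but not in macrophages, where replicate 3 was highest. Levels below are CPM with mean ± SD over 3 libraries. Shares of cells with a UMI were taken after thinning every cell to 2000 UMIs, which sets all classes to the same depth. This left out 2 CD8 T, 43 CD4 T, 20 Treg, 26 B and 1 macrophage cells of lower depth. At this depth any of the 9 receptors was seen in 46.5% ± 3.85 of CD8 T, 49.05% ± 8.32 of CD4 T, 63.7% ± 5.77 of Treg and 64.9% ± 6.27 of B cells.

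The 4 class comparisons were fitted across all genes with edgeR's quasi-likelihood test on summed UMIs, blocked by library. Adjusted p-values are Benjamini-Hochberg values over all genes tested. CD8 T against CD4 T called 5 of 9 receptors, 3 higher and 2 lower, where 10.4% of all 12136 genes tested were called. Treg against CD4 T called 4 of 9, all higher, against 5.72% of all genes. B cells against the mean of CD8 T and CD4 T cells called 8 of 9 (2 higher, 6 lower), where 54.7% of all genes were called. Macrophages against the same mean called 4 of 9 (1 higher, 3 lower) against 36.4%. The median log2 fold change of the 9 receptors was -0.18, 0.50, -3.35 and -1.80 in these comparisons, beside 0.01, 0.005, -0.03 and -0.54 over all genes. Without the library block edgeR called 0 receptors and 395 genes in CD8 T against CD4 T, and 2 receptors and 106 genes in Treg against CD4 T. Most calls among T classes also depended on which library was left out. In CD8 T against CD4 T, 1 receptor was called without replicate 2, 2 without replicate 3 and 6 without replicate 1. In Treg against CD4 T these counts were 1, 2 and 5. Losses with the block kept, and calls gained under another setting, are given beside each receptor. With no filter on low counts 15 calls were gained and 0 lost at nearly unchanged fold changes, so adjusted p-values of that setting are not read as stronger support. Cells of mixed lineage are T cells that also carried a UMI of Cd79a, Ms4a1, C1qa or C1qb. In the fits without them, CD8 T cells with Foxp3 and B cells or macrophages with Cd3d or the other's gene were also left out. The study's own cell limits are its bounds on genes, UMIs and mitochondrial and ribosomal shares.

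**Figure D1:**
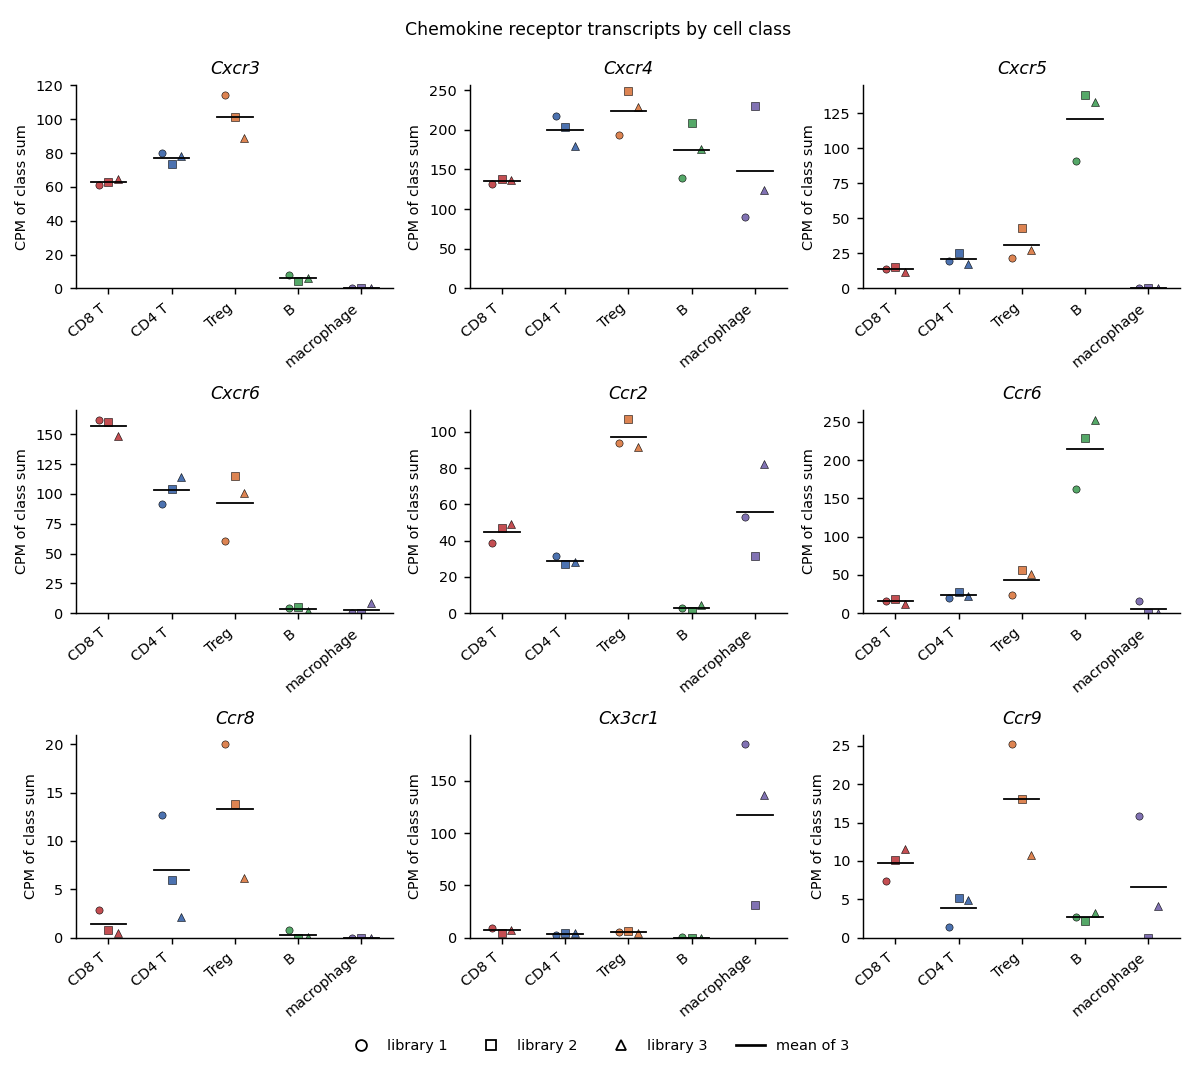
Level of each receptor, in CPM of the summed UMIs, by cell class (x axis). Each point is 1 library and the line is the mean of 3. Cxcr3 and Cxcr6 stand above B cells and macrophages in every T-cell point, Cxcr5 and Ccr6 are highest in the 3 B-cell points, and Cx3cr1 is highest in macrophages. Each panel has its own y axis, starting at 0.

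Cxcr3 (ENSMUSG00000050232, chrX:101731535-101734269, minus strand; coordinates here and below are GRCm38, GENCODE M21) was highest in Treg among the 5 classes. Its level was 114, 101 and 88.9 CPM in Treg of replicates 1, 2 and 3. In the same order it was 79.8, 73.5 and 78.4 CPM in CD4 T cells and 61.03, 62.98 and 64.9 CPM in CD8 T cells. B cells held 7.77, 4.62 and 6.23 CPM. The 68 macrophages held 0 of 558022 UMIs, which allows up to 5.38 CPM. The 3 T classes did not overlap and kept the order Treg, CD4 T, CD8 T, but neither step passed the test with all cells. Treg against CD4 T gave log2 fold change 0.30, SE 0.12, adjusted p = 0.199, and CD8 T against CD4 T gave log2 fold change -0.18, SE 0.12, adjusted p = 0.41. The Treg step did pass within the study's own cell limits (0.58, adjusted p = 0.0188). B cells fell below T cells (log2 fold change -3.45, SE 0.14, adjusted p = 1.43e-10). Against the macrophage limit Cxcr3 was at least 11.8-fold higher in CD8 T cells and at least 18.04-fold higher in Treg. After thinning, 17.2% ± 2.91 (SD, n = 3 libraries) of Treg, 13.4% ± 1.74 of CD4 T cells and 11.03% ± 1.01 of CD8 T cells carried a Cxcr3 UMI. The share was 0.940% ± 0.194 in B cells, given for comparison. Of 208 Cxcr3 UMIs in B cells, 10 cells held 42 and the highest cell 7. How much of this share is free RNA was not tested. Without thinning the 3 T shares were 46.3%, 28.5% and 28.4%. Cxcr3 was not particular to T cells. Outside the 5 classes, cells with Ncr1, an NK-cell receptor gene, and no Cd3e held 84.1 ± 5.53 CPM. Cells with at least 2 UMIs of Siglech, a gene of plasmacytoid dendritic cells, and no Cd3e held 72.7 ± 35.7 CPM. Both means lay above that of CD8 T cells, 62.95 ± 1.91 CPM, with no test.

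Cxcr6 (ENSMUSG00000048521, chr9:123806475-123811760, plus strand) was highest in CD8 T cells among the 5 classes. Its level was 162, 159.98 and 149 CPM in CD8 T cells, 91.7, 104 and 114 CPM in CD4 T cells and 60.4, 115 and 101 CPM in Treg. Every CD8 T value lay above every CD4 T value, while CD4 T cells and Treg overlapped. CD8 T cells were higher than CD4 T cells (log2 fold change 0.70, SE 0.18, adjusted p = 0.0192). Treg did not pass the test against CD4 T cells (log2 fold change -0.25, SE 0.19, adjusted p = 0.573). The CD8 T call was lost with DESeq2 (0.69, adjusted p = 0.0829), without replicate 2 (0.69, adjusted p = 0.157) or without the cells of mixed lineage (0.66, adjusted p = 0.0546). Treg were lower than CD4 T cells within the study's own cell limits (-0.59, adjusted p = 0.043) or with cells thinned before they were classed (-0.90, adjusted p = 6.23e-05). B cells held 3.63 ± 1.75 CPM (log2 fold change -5.02, SE 0.23, adjusted p = 8.82e-11). Macrophages held 2 UMIs in all, which made the CD8 T level higher by a ratio of 43.4 (exact 95% counting interval 12.01 to 359). Among thinned cells, 17.6% ± 4.12 of CD8 T cells, 11.1% ± 1.62 of CD4 T cells and 11.6% ± 1.74 of Treg carried the transcript, over 0.453% ± 0.328 of B cells. The unthinned shares were 29.6%, 17.2%, 23.8% and 1.11%. Outside the classes, the cells with Cd3e and Trdc, a gamma-delta T-cell gene, held 258 ± 40.04 CPM and those with Ncr1 219 ± 75.9 CPM. Single cells reached 40 UMIs in CD8 T cells.

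Because Cxcr6 was the receptor that differed most with Pdcd1 in CD8 T and CD4 T cells among those called in both, the 248 bases before its annotated start are shown, taken from the RefSeq promoter table (GRCm38.p6, chr9:123806227-123806474, plus strand). Capitals mark the 1 match to the RUNX core TGTGGT on the reverse strand, which starts 8 bases before the gene.
Cxcr6 promoter: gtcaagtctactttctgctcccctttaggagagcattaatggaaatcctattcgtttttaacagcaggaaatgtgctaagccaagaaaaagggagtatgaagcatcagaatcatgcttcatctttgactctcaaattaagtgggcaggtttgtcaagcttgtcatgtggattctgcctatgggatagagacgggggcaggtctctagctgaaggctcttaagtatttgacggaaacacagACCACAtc
The T-box core TCACAC and the AP-1 sequence TGANTCA, searched on both strands, had no match in this window. Windows of the same length held the RUNX core in 13.97%, the T-box core in 12.2% and the AP-1 sequence in 6.73% of 32851 promoters, so a match is common and describes the letters only.

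Cxcr4 (ENSMUSG00000045382, chr1:128588199-128592293, minus strand) was carried by all 5 classes. Cxcr4 measured 194, 248 and 229 CPM in Treg, 218, 204 and 179.8 CPM in CD4 T cells, 139.8, 208 and 175 CPM in B cells and 131, 138 and 137 CPM in CD8 T cells. Macrophages measured 89.9, 229.9 and 124 CPM. The ranges of Treg, CD4 T cells, B cells and macrophages overlapped, and CD8 T cells lay below all CD4 T values. CD8 T cells were lower than CD4 T cells (log2 fold change -0.47, SE 0.14, adjusted p = 0.0439). The call was lost without replicate 1 (-0.39, adjusted p = 0.0602), without replicate 2 (-0.47, adjusted p = 0.153), without replicate 3 (-0.55, adjusted p = 0.207) or within the study's own cell limits (-0.53, adjusted p = 0.0773). Treg did not pass the test (log2 fold change 0.07, SE 0.14, adjusted p = 0.878), nor did B cells (log2 fold change 0.14, SE 0.12, adjusted p = 0.325) or macrophages (log2 fold change -0.29, SE 0.19, adjusted p = 0.251). Of the 9, Cxcr4 alone had no call between B and T cells with all cells and libraries. It was higher in B cells without replicate 1 (0.26, adjusted p = 0.0473), within the study's own cell limits (0.55, adjusted p = 0.00329), without the cells of mixed lineage (0.27, adjusted p = 0.0257) or with cells thinned before they were classed (0.25, adjusted p = 0.0454). It was lower in macrophages without replicate 2 (-0.63, adjusted p = 0.0409) or with cells thinned before they were classed (-1.30, adjusted p = 0.0239). The thinned fit also lacked the macrophages of replicate 2, whose 6 cells fell below the minimum of 10 for a sum. Thinned shares were 36.8% ± 2.22 in Treg, 31.3% ± 5.66 in CD4 T, 31.6% ± 4.43 in B and 22.2% ± 0.856 in CD8 T cells. They were 74.7%, 57.9%, 60.5% and 53.2% unthinned, and no class lacked the transcript to serve as a comparison.

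Cxcr5 (ENSMUSG00000047880, chr9:44511787-44561877, minus strand) and Ccr6 (ENSMUSG00000040899, chr17:8236043-8257141, plus strand) were highest in B cells among the 5 classes and are the receptors that place B cells in follicles and at sites of CCL20. Cxcr5 measured 91.1, 138 and 133 CPM in B cells, 21.7, 43.1 and 27.1 CPM in Treg, 19.4, 25.6 and 17.7 CPM in CD4 T cells and 14.1, 15.5 and 12.1 CPM in CD8 T cells. Every B-cell value lay above every T-cell value, and Treg overlapped CD4 T cells. Ccr6 measured 162, 229 and 253 CPM in B cells, 23.04, 56.5 and 50.9 CPM in Treg, 19.5, 27.9 and 22.3 CPM in CD4 T cells and 15.3, 18.8 and 11.4 CPM in CD8 T cells. The B-cell values again stood apart, and both genes were higher in B cells (for Cxcr5 log2 fold change 2.92, SE 0.11, adjusted p = 9.63e-11, and for Ccr6 log2 fold change 3.61, SE 0.15, adjusted p = 3.92e-11). B cells alone held 57.5% of all Cxcr5 UMIs and 64.7% of all Ccr6 UMIs, while holding 18.3% of the UMIs of all genes. After thinning, 22.999% ± 3.31 of B cells carried Cxcr5 and 31.7% ± 4.62 carried Ccr6. Of 4910 thinned B cells 381 carried both, beside 351 from the product of the 2 shares. The unthinned shares of B cells were 49.4% and 59.5%. Macrophages held 0 UMIs of Cxcr5, so that B cells were at least 22.7-fold higher, and 3 UMIs of Ccr6, for a B-cell ratio of 40.1 (exact 95% counting interval 13.7 to 194).

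Within T cells the levels of Cxcr5 and Ccr6 moved with B-cell transcripts. Cells that carried any UMI of Cd79a, Ms4a1, C1qa or C1qb made up 27.9% of Treg, 14.02% of CD4 T cells and 10.8% of CD8 T cells. Their median depths were 14002, 10920 and 11021 UMIs against 6643, 5483 and 6613 in the other cells. These cells held 85.2% of the Treg Cxcr5 UMIs and 81.96% of the Treg Ccr6 UMIs, beside 32.3% for Cxcr3. Among CD4 T cells they held 71.02% of Cxcr5 and 87.4% of Ccr6. Without them Cxcr5 measured 8.71 ± 1.06 CPM in Treg and 8.69 ± 1.87 CPM in CD4 T cells. The log2 difference of Treg from CD4 T cells went from 0.50 (adjusted p = 0.0756) to -0.08, SE 0.26, adjusted p = 0.939. Ccr6 did otherwise, and was higher in Treg than in CD4 T cells with all cells (log2 fold change 0.85, SE 0.20, adjusted p = 0.018) and without the cells of mixed lineage (log2 fold change 1.80, SE 0.31, adjusted p = 0.00302). Without those cells it stood at 14.2 ± 3.60 CPM in Treg against 4.05 ± 0.674 CPM in CD4 T cells. With all cells the Ccr6 call was lost with DESeq2 (0.80, adjusted p = 0.313), without replicate 2 (0.80, adjusted p = 0.318), without replicate 3 (0.69, adjusted p = 0.229) or within the study's own cell limits (2.48, adjusted p = 0.121). CD8 T against CD4 T gave no call for either receptor (for Cxcr5 log2 fold change -0.50, SE 0.16, adjusted p = 0.059, and for Ccr6 log2 fold change -0.55, SE 0.21, adjusted p = 0.126). Within the study's own cell limits both differences turned, to 0.17, SE 0.49, adjusted p = 0.937 for Cxcr5 and 1.22, SE 0.95, adjusted p = 0.581 for Ccr6. Cxcr5 was lower in CD8 T cells with no filter on low counts (-0.55, adjusted p = 0.00446), without replicate 1 (-0.55, adjusted p = 0.0431) or with the 3 T classes fitted alone (-0.50, adjusted p = 0.0099), and Ccr6 with no filter on low counts (-0.59, adjusted p = 0.00387), without replicate 1 (-0.64, adjusted p = 0.0405) or with the 3 T classes fitted alone (-0.55, adjusted p = 0.043). Cxcr5 passed in Treg against CD4 T cells with no filter on low counts (0.46, adjusted p = 0.0261), without replicate 1 (0.58, adjusted p = 0.0301) or with the 3 T classes fitted alone (0.51, adjusted p = 0.0102). The call of Cxcr5 as lower in macrophages than in T cells (adjusted p = 0.00705) was lost without replicate 1 (adjusted p = 0.0637). It was also lost without the cells of mixed lineage (adjusted p = 0.146) or with cells thinned before they were classed (adjusted p = 0.314). Both of these fits lacked the macrophages of replicate 2, whose 7 and 6 cells fell below the minimum of 10 for a sum. Within the study's own cell limits macrophages numbered 18, 1 and 4, so only replicate 1 entered (log2 fold change -7.24). For Ccr6, macrophages passed as lower than T cells with no filter on low counts (-1.83, adjusted p = 0.044).

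Ccr2 (ENSMUSG00000049103, chr9:124101950-124113557, plus strand), the receptor of CCL2 and CCL7, had the lowest adjusted p of the 9 in Treg against CD4 T cells. It measured 93.9, 107 and 91.6 CPM in Treg, 38.6, 47.1 and 48.9 CPM in CD8 T cells and 31.6, 27.3 and 28.3 CPM in CD4 T cells, 3 ranges that did not overlap. Treg against CD8 T cells was not tested. Outside the classes, the cells with Cd3e and Trdc held 109 ± 6.36 CPM. Treg were higher than CD4 T cells (log2 fold change 1.68, SE 0.17, adjusted p = 2.50e-05), a call kept under all 12 alternative settings. CD8 T cells were also higher than CD4 T cells (log2 fold change 0.76, SE 0.17, adjusted p = 0.00838). The CD8 T call for Ccr2 was lost with DESeq2 (0.73, adjusted p = 0.0738), without replicate 2 (0.67, adjusted p = 0.0573) or without replicate 3 (0.68, adjusted p = 0.0861). Macrophages measured 52.9, 31.7 and 82.4 CPM, a range that spans the T classes, and did not pass the test (log2 fold change 0.69, SE 0.39, adjusted p = 0.183) except without replicate 2 (0.89, adjusted p = 0.0459). B cells were lower at 2.86 ± 1.55 CPM (log2 fold change -3.65, SE 0.22, adjusted p = 1.26e-09). The share of cells was 13.7% ± 2.99 in Treg, 6.19% ± 0.271 in CD8 T, 4.10% ± 1.12 in CD4 T and 0.361% ± 0.181 in B cells. Unthinned it was 25.8%, 13.9%, 7.76% and 0.997%.

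Ccr8 (ENSMUSG00000042262, chr9:120092114-120094906, plus strand) was low and was found mainly in Treg and CD4 T cells. Its 201 UMIs in Treg gave 19.998, 13.8 and 6.15 CPM, its 218 in CD4 T cells 12.7, 5.99 and 2.13 CPM, and its 27 in CD8 T cells 2.92, 0.799 and 0.440 CPM. In each of the 3 T classes the library of replicate 1 was highest and that of replicate 3 lowest, so the class ranges overlapped while the order held within every library. The library of replicate 1 is also the one with the high cycling and endocrine genes in the T classes, and without it neither call below was lost. Treg were higher than CD4 T cells (log2 fold change 1.06, SE 0.28, adjusted p = 0.0456) and CD8 T cells were lower (log2 fold change -2.31, SE 0.38, adjusted p = 0.00125). The Treg call was lost without replicate 2 (1.02, adjusted p = 0.226), without replicate 3 (0.90, adjusted p = 0.416), without the cells of mixed lineage (1.17, adjusted p = 0.0521) or with cells thinned before they were classed (1.23, adjusted p = 0.211), and the CD8 T call within the study's own cell limits (-2.45, adjusted p = 0.0587) or with cells thinned before they were classed (-1.59, adjusted p = 0.258). B cells held 9 UMIs of Ccr8 and macrophages 0.

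Cx3cr1 (ENSMUSG00000052336, chr9:119901616-120069879, minus strand) was highest in macrophages. Its level was 185, 31.7 and 136 CPM in macrophages, from 72 UMIs. It was 8.98, 4.97 and 7.04 CPM in CD8 T cells, 5.22, 6.10 and 4.29 CPM in Treg and 2.27, 4.17 and 4.21 CPM in CD4 T cells. Every macrophage value exceeded every T-cell value (log2 fold change 4.53, SE 0.40, adjusted p = 2.14e-07), and the 10 macrophages of replicate 2 gave the lowest. That library had the highest monocyte genes of the class, and without it the log2 fold change was 4.86 (edgeR adjusted p = 3.00e-07). CD8 T cells were above CD4 T cells in 3 of 3 libraries, without passing the test (log2 fold change 0.89, SE 0.34, adjusted p = 0.115). It passed with no filter on low counts (0.84, adjusted p = 0.015), with cells thinned before they were classed (2.12, adjusted p = 0.016) or with the 3 T classes fitted alone (0.91, adjusted p = 0.0316). B cells were lower than T cells with 5 UMIs in all (log2 fold change -4.93, SE 0.56, adjusted p = 2.17e-06). In T cells the transcript was concentrated in few cells: 10 CD4 T cells held 59.2% of the UMIs of that class, and 10 CD8 T cells 35.2%.

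Ccr9 (ENSMUSG00000029530, chr9:123678439-123784330, plus strand) lay mostly outside the 5 classes. Of its 3036 UMIs, 72.1% were in cells that met no rule, which held 35.04% of all UMIs. The 158 cells with at least 1 UMI of Siglech, a plasmacytoid dendritic cell gene, held 76.2% of the Ccr9 UMIs. Among them, 73 cells with at least 2 Siglech UMIs and no Cd3e measured 1555, 1767 and 2119 CPM of Ccr9, with 1293 ± 303 CPM of Tcf4 and 724 ± 323 CPM of Cox6a2, 2 further genes of that cell type.

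In the T classes Ccr9 moved with the same cells. It measured 25.2, 18.03 and 10.8 CPM in Treg, 7.40, 10.1 and 11.5 CPM in CD8 T cells and 1.39, 5.23 and 4.90 CPM in CD4 T cells. Treg were higher than CD4 T cells (log2 fold change 1.86, SE 0.34, adjusted p = 0.00416), as were CD8 T cells (log2 fold change 1.31, SE 0.34, adjusted p = 0.0204). However, 15 of 1671 Treg carried Siglech, at a median of 16479 UMIs against 8445 in the rest. These held 229 of the 284 Treg Ccr9 UMIs. The share was 133 of 196 UMIs in CD4 T cells and 108 of 278 in CD8 T cells. Without the Siglech-carrying cells Treg measured 3.19, 3.56 and 2.58 CPM, CD8 T cells 5.91, 5.62 and 7.16 CPM and CD4 T cells 1.40, 1.003 and 1.89 CPM. The order then put CD8 T cells above Treg in every library. Treg no longer passed the test against CD4 T cells (log2 fold change 1.02, SE 0.32, adjusted p = 0.0831), and CD8 T cells did (log2 fold change 2.22, SE 0.28, adjusted p = 7.59e-05). With all cells the Treg call was also lost without replicate 2 (2.08, adjusted p = 0.0788), within the study's own cell limits (0.61, adjusted p = 0.811) or with cells thinned before they were classed (-0.27, adjusted p = 0.96), and the CD8 T call without replicate 2 (1.51, adjusted p = 0.12), without replicate 3 (1.35, adjusted p = 0.147) or with cells thinned before they were classed (1.60, adjusted p = 0.114). B cells were lower than T cells with all cells (log2 fold change -1.23, SE 0.35, adjusted p = 0.00695), but the call was lost without replicate 2 (-0.93, adjusted p = 0.139), within the study's own cell limits (-1.34, adjusted p = 0.0681) or without the Siglech-carrying cells (-0.10, adjusted p = 0.747).

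**Figure D2:**
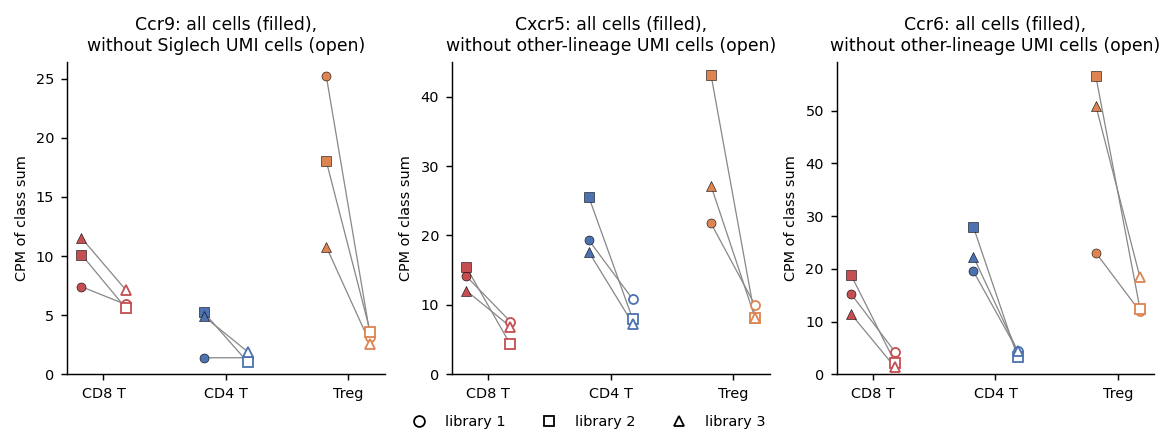
Ccr9, Cxcr5 and Ccr6 in the 3 T classes (y axis, CPM of the summed UMIs) with all cells (filled) and without the cells that carry a Siglech UMI (Ccr9) or any UMI of Cd79a, Ms4a1, C1qa or C1qb (Cxcr5 and Ccr6, open symbols). Each line joins 1 library. The Treg values of Ccr9 drop from 25.2, 18.03 and 10.8 CPM to 3.19, 3.56 and 2.58 CPM, and those of Cxcr5 drop to 9.93, 8.11 and 8.09 CPM.

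**Figure D3:**
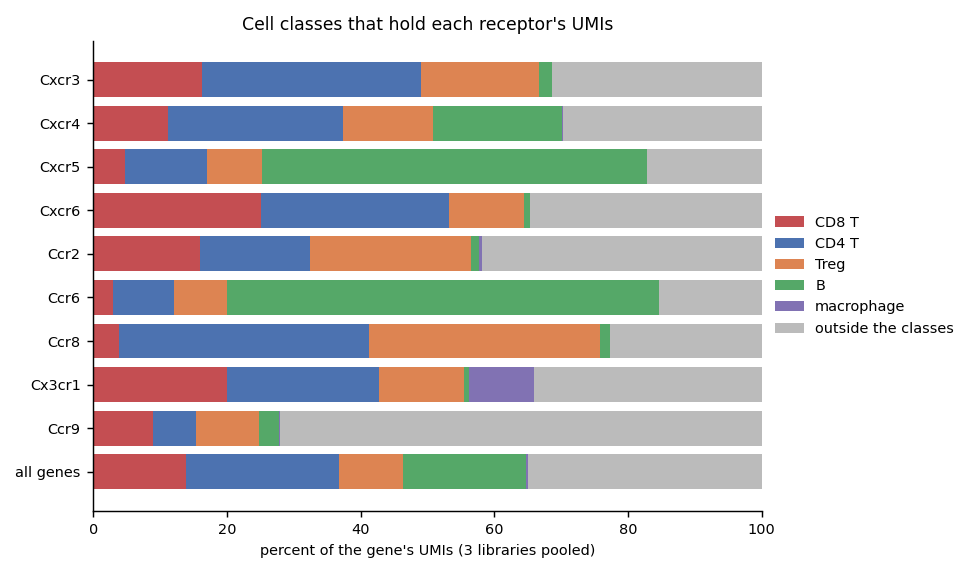
Percent of each receptor's UMIs, pooled over the 3 libraries (x axis), that lay in each class or in cells outside the classes, with the UMIs of all genes in the bottom bar. Cells that met 2 rules count as Treg. B cells hold 64.7% of Ccr6 and 57.5% of Cxcr5, and cells outside the classes hold 72.1% of Ccr9.

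PD1, encoded by Pdcd1, is the checkpoint receptor whose loss accelerates diabetes in NOD mice, and the study examined it, with other checkpoint receptors, on islet T cells. Each T class was therefore split into cells with at least 1 UMI of Pdcd1 (Pdcd1+) and cells with none (Pdcd1-). The Pdcd1+ share was 35.5% ± 6.93 in CD8 T cells, 33.9% ± 1.12 in CD4 T cells and 52.5% ± 11.7 in Treg (SD, n = 3). Pdcd1+ cells were deeper, with median UMIs of 7529 against 6598 in CD8 T cells, 6593 against 5499 in CD4 T cells and 10599 against 6601 in Treg. A cell without a Pdcd1 UMI may still express the gene, since detection depends on depth. Values with cells thinned before the split are given where they change a call. That fit tested only Cxcr3, Cxcr4, Cxcr6 and Ccr2, as the other receptors did not pass its filter on low counts.

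In CD8 T cells 4 of 9 receptors were higher with Pdcd1 and none was lower, where 13.6% of all 10839 genes tested were called. Among CD4 T cells 5 of 9 were higher and none lower, against 15.6% of all genes. In Treg 0 of 9 were called by edgeR and 0 by DESeq2, where 0.6% of all genes were called. At an unadjusted edgeR p under 0.05 there were 2 of the 9 receptors, beside 1085 of the 10839 genes. Without the library block edgeR called 2 receptors and 180 genes in CD8 T cells, 1 receptor and 180 genes in CD4 T cells, and 0 receptors and 1 gene in Treg. The median log2 difference of the 9 receptors was 0.41 in CD8 T cells, 0.72 in CD4 T cells and 0.16 in Treg, beside -0.007, -0.008 and 0.001 over all genes. After thinning, 61.7% ± 2.19 of Pdcd1+ and 38.5% ± 3.74 of Pdcd1- CD8 T cells carried a UMI of any of the 9. The shares were 65.8% ± 2.58 and 40.4% ± 11.6 in CD4 T cells, and 67.02% ± 3.57 and 58.6% ± 10.2 in Treg.

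Genes of other programmes moved with the same split. The NK-cell list (Ncr1, Klrb1c, Eomes, Gzma), of which Eomes and Gzma are also known from effector CD8 T cells, summed to 129 to 164 CPM in Pdcd1- and 292 to 344 CPM in Pdcd1+ CD8 T cells. In CD4 T cells it summed to 30.7 to 47.1 and 56.7 to 94.6 CPM. The cycling genes went from 244, 29.99 and 34.9 to 371, 50.3 and 64.9 CPM in CD8 T cells and from 136, 16.9 and 23.1 to 360.03, 42.4 and 40.1 CPM in CD4 T cells, higher in 3 of 3 libraries of both. Plasma-cell genes (Jchain, Xbp1, Mzb1) went from 320.3, 139 and 103 to 435, 987 and 912 CPM in CD4 T cells. In CD8 T cells they went from 366, 363 and 419.9 to 1038, 104 and 79.4 CPM, higher in replicate 1 and lower in the other libraries. In Treg the plasma-cell genes went from 134, 522 and 121 to 1639, 734 and 136 CPM. The part of these genes' cells in the receptor differences was not tested.

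**Figure D4:**
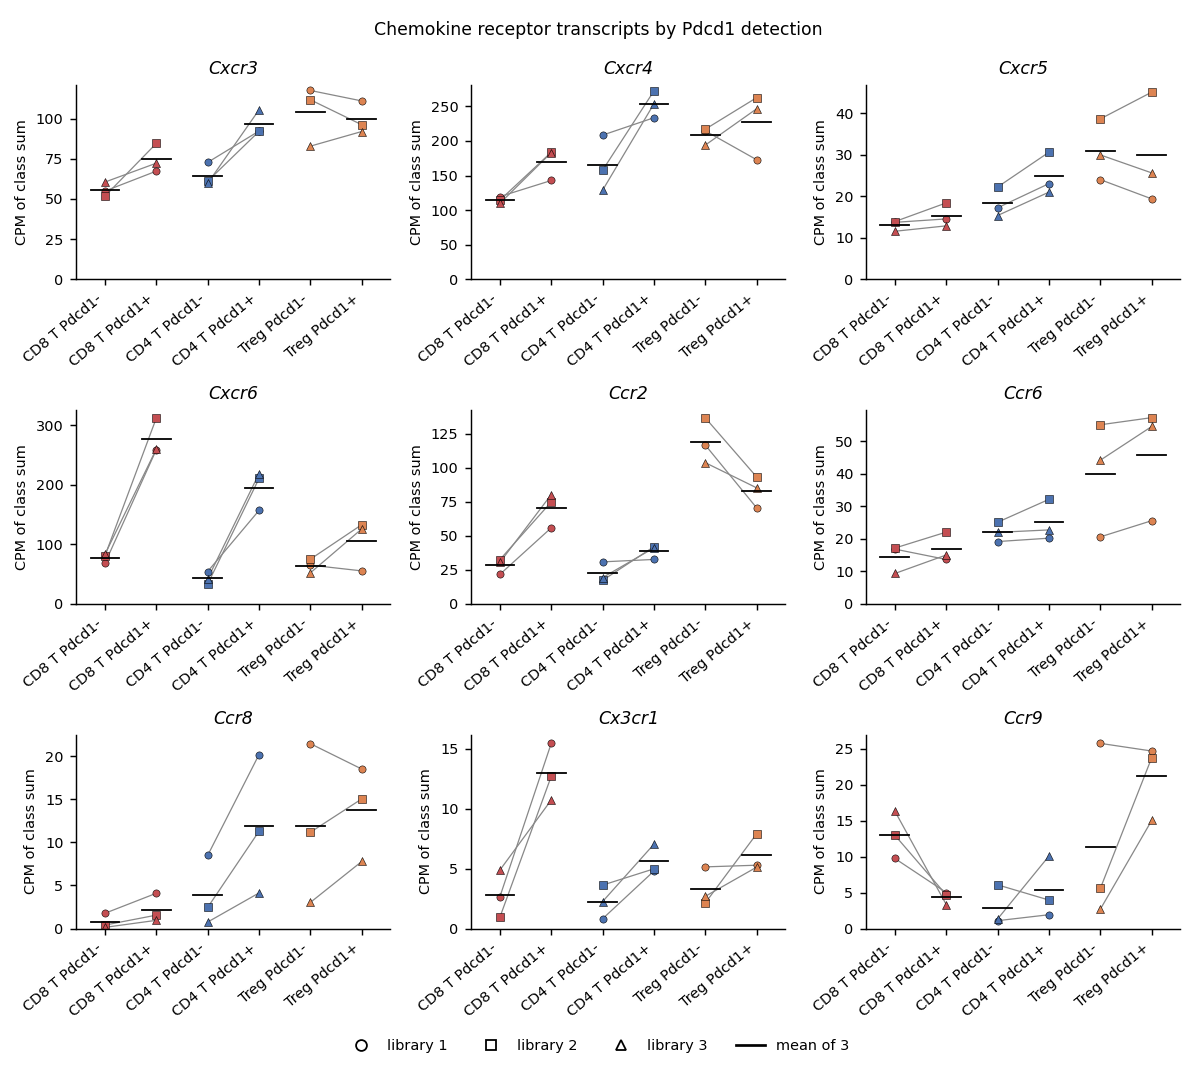
Level of each receptor, in CPM of the summed UMIs (y axis, from 0), in Pdcd1- and Pdcd1+ cells of the 3 T classes. Each point is 1 library, grey lines join the same library and black lines mark the mean of 3. Cxcr6 and Ccr2 rise from Pdcd1- to Pdcd1+ in all 3 libraries of CD8 T and CD4 T cells, and Ccr2 is lower in Pdcd1+ Treg in all 3.

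Cxcr6 differed most among the receptors called in both CD8 T and CD4 T cells. In CD8 T cells it went from 68.2, 80.6 and 83.2 CPM in Pdcd1- to 259, 312 and 260.2 CPM in Pdcd1+ cells (log2 fold change 1.66, SE 0.18, adjusted p = 9.72e-06). CD4 T cells went from 54.4, 33.3 and 42.1 to 157, 211 and 219 CPM (log2 fold change 2.04, SE 0.19, adjusted p = 9.11e-07). The Pdcd1+ and Pdcd1- values did not overlap in either class, and both calls were kept under all 12 alternatives. In Treg it measured 65.2, 75.2 and 52.2 CPM without and 55.5, 133 and 126 CPM with Pdcd1, higher in replicates 2 and 3 and lower in replicate 1 (log2 fold change 0.75, SE 0.21, adjusted p = 0.142). It passed with no filter on low counts (0.77, adjusted p = 4.99e-09), without replicate 1 (0.99, adjusted p = 0.00201) or with Pdcd1 at 2 or more UMIs against 0 (0.85, adjusted p = 0.0414). With no filter the log2 value hardly moved from 0.75, so that low adjusted p is not read as stronger support. The thinned share went from 10.9% ± 1.19 to 29.5% ± 6.24 in CD8 T cells and from 5.98% ± 2.36 to 20.9% ± 0.631 in CD4 T cells, over 0.453% ± 0.328 in B cells. Unthinned it went from 20.1% to 46.1% and from 9.82% to 31.4%.

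Among thinned cells grouped by their number of Pdcd1 UMIs, the share of CD4 T cells with Cxcr6 was 7.96% ± 2.24 at 0, 17.6% ± 1.75 at 1 and 29.1% ± 0.420 at 2 or more Pdcd1 UMIs, with no overlap between libraries from one step to the next. In CD8 T cells it was 12.996% ± 1.63, 29.9% ± 6.79 and 37.8% ± 11.3, where the last 2 steps overlapped. In Treg it was 10.8% ± 2.36, 11.6% ± 1.67 and 12.9% ± 11.3, within the spread of the libraries, and the last step rests on 20 cells in replicate 1. Ccr2 in CD8 T cells went from 4.55% ± 0.653 over 10.1% ± 3.07 to 14.2% ± 3.83, and stayed between 13.4% and 15.2% in Treg.

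Ccr2 rose with Pdcd1 in conventional T cells. It measured 21.7, 32.6 and 30.5 CPM in Pdcd1- and 55.9, 74.98 and 80.4 CPM in Pdcd1+ CD8 T cells (log2 fold change 1.11, SE 0.17, adjusted p = 2.16e-04). CD4 T cells measured 30.9, 17.3 and 19.4 CPM and 32.7, 42.1 and 41.2 CPM (log2 fold change 0.72, SE 0.17, adjusted p = 0.00652). The CD4 T difference was small in replicate 1, at 1.06-fold against 2.43-fold and 2.13-fold. This call was lost without replicate 2 (0.51, adjusted p = 0.254), without replicate 3 (0.58, adjusted p = 0.25) or with cells thinned before they were classed (0.51, adjusted p = 0.21), and the CD8 T call was kept under all 12 alternatives. Treg went the other way, with 117, 137 and 104 CPM in Pdcd1- and 70.5, 93.2 and 85.3 CPM in Pdcd1+ cells, lower in 3 of 3 libraries without passing the test (log2 fold change -0.54, SE 0.16, adjusted p = 0.19). It passed with no filter on low counts (-0.51, adjusted p = 7.10e-04) or without replicate 1 (-0.47, adjusted p = 0.0324). The thinned Treg shares of 14.1% ± 3.27 and 13.3% ± 2.79 lay within the spread of the libraries. Thinned CD4 T shares differed by -1.38, 3.79 and 3.30 percentage points in replicates 1, 2 and 3, so replicate 1 went down with Pdcd1.

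The difference between classes in the Pdcd1 effect was itself tested. Between Treg and CD4 T cells 1 of 9 receptors was called, Ccr2 (log2 fold change -1.25, SE 0.23, adjusted p = 0.0204), where 0.323% of all genes were called. This call was lost without replicate 2 (-1.02, adjusted p = 0.934), without replicate 3 (-1.21, adjusted p = 0.57) or with cells thinned before they were classed (-1.50, adjusted p = 0.102), and without the library block. Cxcr6 lay just beyond the threshold (log2 fold change -1.30, SE 0.28, adjusted p = 0.0523), and passed with DESeq2 (-1.34, adjusted p = 0.00211), with no filter on low counts (-1.27, adjusted p = 9.21e-14), without replicate 1 (-1.33, adjusted p = 0.00137), within the study's own cell limits (-1.79, adjusted p = 0.0101) or without the Siglech-carrying cells (-1.29, adjusted p = 0.048). Cxcr3 passed with no filter on low counts (-0.52, adjusted p = 0.0337) and Cxcr4 without replicate 1 (-0.44, adjusted p = 0.0226). Between CD8 T and CD4 T cells 0 of 9 receptors were called by edgeR and 0 by DESeq2, beside 0% of all genes. At an unadjusted edgeR p under 0.05 there was 1 receptor, beside 691 of 10839 genes. Ccr9 passed there with no filter on low counts (-2.74, adjusted p = 6.34e-13), although the main fit gave the same log2 value with edgeR adjusted p = 0.499. For Cxcr6 the difference between CD8 T and CD4 T cells was -0.38 (95% interval -0.92 to 0.16), and for Ccr2 0.39 (95% interval -0.11 to 0.89).

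Cx3cr1 and Ccr8 rose in 1 class each. Cx3cr1 went from 2.66, 0.946 and 4.88 to 15.5, 12.7 and 10.7 CPM in CD8 T cells (log2 fold change 1.98, SE 0.43, adjusted p = 0.00392), from 48 and 128 UMIs and without overlap. The call was lost without replicate 2 (1.49, adjusted p = 0.0688). Ccr8 went from 8.48, 2.45 and 0.752 to 20.2, 11.3 and 4.13 CPM in CD4 T cells (log2 fold change 1.70, SE 0.27, adjusted p = 2.35e-04), higher in 3 of 3 libraries although their ranges overlapped. The call was lost without replicate 2 (1.54, adjusted p = 0.0526). Cx3cr1 and Ccr8 were not tested in the fit with cells thinned before the split, so no fit at equal depth stands beside these calls. The other class gave no call for either, with log2 fold change 1.01, SE 0.42, adjusted p = 0.124 for Cx3cr1 in CD4 T cells and log2 fold change 1.60, SE 0.58, adjusted p = 0.0782 for Ccr8 in CD8 T cells, which rests on 27 UMIs in all. Cx3cr1 in CD4 T cells passed with no filter on low counts (1.01, adjusted p = 0.00301) or without the cells of mixed lineage (1.69, adjusted p = 0.0261), and Ccr8 in CD8 T cells with no filter on low counts (1.62, adjusted p = 0.0446) or with Pdcd1 at 2 or more UMIs against 0 (1.93, adjusted p = 0.0323). Neither receptor was shown to differ between CD8 T and CD4 T cells in its Pdcd1 difference (for Cx3cr1 log2 fold change 0.98, SE 0.61, adjusted p = 0.886, 95% interval -0.31 to 2.27, and for Ccr8 log2 fold change -0.10, SE 1.05, adjusted p = 1, 95% interval -2.31 to 2.11).

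Cxcr4 and Cxcr3 differed by less. Cxcr4 rose from 119.6, 114 and 109.7 to 143, 184 and 183 CPM in CD8 T cells (log2 fold change 0.41, SE 0.13, adjusted p = 0.0436). It rose from 208, 158 and 129 to 234, 272 and 254 CPM in CD4 T cells (log2 fold change 0.47, SE 0.12, adjusted p = 0.0138). Cxcr3 rose from 72.8, 61.1 and 59.7 to 92.3, 92.1 and 105 CPM in CD4 T cells (log2 fold change 0.44, SE 0.11, adjusted p = 0.00983). Cxcr3 in CD8 T cells measured 54.9, 51.7 and 60.5 and 67.3, 84.6 and 72.3 CPM (log2 fold change 0.25, SE 0.12, adjusted p = 0.201), and passed the test within the study's own cell limits (0.71, adjusted p = 0.0161). The Cxcr4 call was lost in CD8 T cells without replicate 2 (0.39, adjusted p = 0.308), without replicate 3 (0.32, adjusted p = 0.343) or with cells thinned before they were classed (0.28, adjusted p = 0.619), and in CD4 T cells without replicate 2 (0.42, adjusted p = 0.25) or without replicate 3 (0.33, adjusted p = 0.342). The Cxcr3 call was lost without replicate 2 (0.47, adjusted p = 0.115), without replicate 3 (0.33, adjusted p = 0.218) or with cells thinned before they were classed (0.28, adjusted p = 0.358). In Treg both intervals of the log2 difference held 0, at 0.11 (95% interval -0.17 to 0.38) for Cxcr4 and -0.10 (95% interval -0.36 to 0.15) for Cxcr3.

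Neither Cxcr5, which draws helper T cells to follicles, nor Ccr6 was called with Pdcd1 in any class with all cells. Cxcr5 measured 18.3 ± 3.55 and 24.9 ± 5.07 CPM in Pdcd1- and Pdcd1+ CD4 T cells (log2 fold change 0.26, SE 0.12, adjusted p = 0.181). Without the cells that carried B-cell or macrophage UMIs, however, Cxcr5 was higher in Pdcd1+ CD4 T cells (log2 fold change 0.97, SE 0.21, adjusted p = 0.00261). Ccr6 measured 22.1 ± 2.97 and 25.01 ± 6.28 CPM in these cells (log2 fold change -0.01, SE 0.17, adjusted p = 0.983), and was at 0.55, SE 0.54, adjusted p = 0.568 without the cells of mixed lineage. In CD8 T cells the differences were 0.07 (95% interval -0.26 to 0.40) for Cxcr5 and 0.15 (95% interval -0.32 to 0.62) for Ccr6. In Treg they were -0.06 (95% interval -0.36 to 0.23) and 0.16 (95% interval -0.23 to 0.55).

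Ccr9 was the 1 receptor that was lower in Pdcd1+ CD8 T cells in 3 of 3 libraries. It measured 9.74, 12.97 and 16.3 CPM in Pdcd1- and 5.003, 4.67 and 3.34 CPM in Pdcd1+ CD8 T cells, without overlap and just beyond the threshold (log2 fold change -1.88, SE 0.62, adjusted p = 0.0528). Without the Siglech-carrying cells the difference passed the test (log2 fold change -1.40, SE 0.41, adjusted p = 0.0291), at 8.43 ± 2.01 CPM against 3.29 ± 1.41 CPM. It also passed with no filter on low counts (-1.87, adjusted p = 6.24e-13), without replicate 1 (-2.07, adjusted p = 0.0211) or with Pdcd1 at 2 or more UMIs against 0 (-2.53, adjusted p = 0.02). In CD4 T cells, where the difference was 0.86 (adjusted p = 0.41), it passed as higher with no filter on low counts (0.87, adjusted p = 0.00334) or without the cells of mixed lineage (2.43, adjusted p = 0.0128). In Treg it passed with no filter on low counts (1.24, adjusted p = 4.76e-05). In Treg the difference changed sign without the Siglech-carrying cells, from 1.21 (adjusted p = 0.553) to -0.76, SE 0.55, adjusted p = 0.722.

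**Figure D5:**
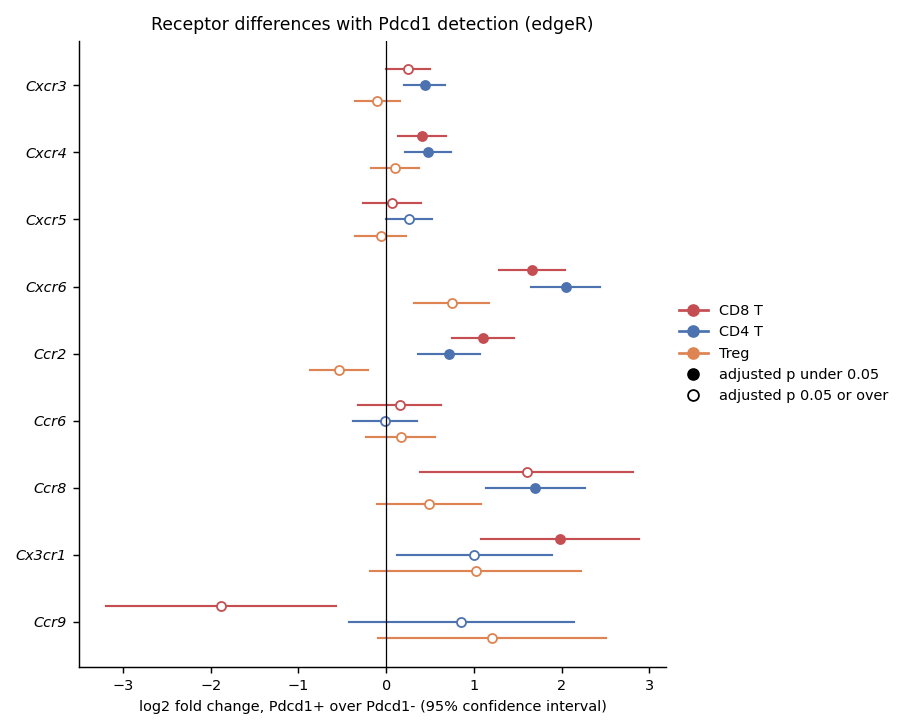
Log2 fold change of Pdcd1+ over Pdcd1- cells (x axis) with its 95% confidence interval, for each receptor in CD8 T cells, CD4 T cells and Treg. Filled points had an edgeR adjusted p under 0.05. Cxcr6 and Ccr2 are filled to the right of 0 in CD8 T and CD4 T cells, all Treg points are open, and Ccr9 in CD8 T cells lies at -1.88.

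Cxcr6 and Ccr2 were also found in the same cells. Of 3256 thinned CD8 T cells 537 carried Cxcr6, 202 carried Ccr2 and 108 carried both, beside 33.3 from the product of the shares. Thus 53.5% of Ccr2-positive and 20.1% of Cxcr6-positive cells carried the other. For CD4 T cells 122 of 5815 carried both, beside 23.2. In Treg 51 of 1651 carried both, beside 24.5, and 24.1% of Ccr2-positive Treg carried Cxcr6. Cxcr3 and Cxcr6 met in 130 CD4 T cells beside 79.3. Split by Pdcd1, they met in 54 Pdcd1- CD4 T cells beside 20.9 and in 76 Pdcd1+ CD4 T cells beside 73.9. Cxcr4 and Ccr6 in B cells met in 467 cells beside 487. Cells of 1 library are not replicates, and these counts are given with no test.

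Other receptors of the family, from a list of 13, showed 0 higher and 2 lower of 7 tested in CD8 T against CD4 T cells and 3 higher and 0 lower of 7 tested in Treg against CD4 T cells. In B against T cells the list held 2 higher and 3 lower of 7 tested, and in macrophages against T cells 2 higher and 1 lower of 7 tested. The shares of all genes called in these comparisons were 10.4%, 5.72%, 54.7% and 36.4%. Here and in the lists below a gene could pass the filter on low counts through 1 class alone, so these counts describe the genes tested and not the whole list. Ccr4 was lower in CD8 T than in CD4 T cells (log2 fold change -2.01, adjusted p = 0.00111) and higher in Treg (1.54, adjusted p = 0.00186), in the direction of Ccr8 in both comparisons. Ccrl2, an atypical receptor, was higher in macrophages than in T cells (5.76, adjusted p = 5.04e-09). Ccr1 was lower in CD8 T than in CD4 T cells (-1.53, adjusted p = 0.0188), and Ccr7, the lymph node homing receptor, was lower in macrophages than in T cells (-2.41, adjusted p = 1.07e-08). With Pdcd1 the list showed 0 higher and 1 lower of 5 tested in CD8 T cells and 1 higher and 1 lower of 5 tested in CD4 T cells, where 13.6% and 15.6% of all genes were called. In Treg edgeR called 0 of 5 and DESeq2 0, with 1 at an unadjusted p under 0.05, beside 1085 of 10839 genes at that limit. Ccr7 was lower in Pdcd1+ cells of both classes (-0.68, adjusted p = 6.19e-06 and -0.59, adjusted p = 1.74e-05), and Xcr1 was higher in Pdcd1+ CD4 T cells (1.91, adjusted p = 0.0121). Its level was low, at 3.29 ± 0.904 CPM in Pdcd1+ and 0.910 ± 0.635 CPM in Pdcd1- cells. Xcr1 is also a marker of conventional dendritic cells, and which cells its UMIs came from was not tested.

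The ligands of these receptors, a list of 27 of which 26 were in the tables, passed the filter in 21 cases in the fit with macrophages and B cells and in 15 in the fit of T cells alone. Macrophages against T cells held 17 higher and 1 lower of 21 tested, beside 36.4% of all genes called. Ligands that entered only through macrophages had to differ, so nothing is read from that count. Ccl2 and Ccl7, ligands of CCR2, stood at 1520 ± 928 and 1682 ± 522 CPM in macrophages. They stood at 1.15 ± 0.918 and 1.95 ± 1.98 CPM in T cells. CD8 T against CD4 T cells showed 2 higher and 1 lower of 21 tested, with Ccl5 (2.56, adjusted p = 1.74e-06) and Xcl1 (3.23, adjusted p = 5.64e-08) higher and Cx3cl1 lower (-3.20, adjusted p = 0.00984). Xcl1 varied widely between libraries, at 236 ± 271 CPM in CD8 T and 21.5 ± 17.1 CPM in CD4 T cells. Cx3cl1 was low in both classes, at 0.147 ± 0.135 CPM in CD8 T and 1.86 ± 0.326 CPM in CD4 T cells. Pdcd1+ cells showed 5 higher and 0 lower of 15 tested in CD8 T cells, 5 higher and 0 lower of 15 tested in CD4 T cells and 1 higher and 0 lower of 15 tested in Treg, where 13.6%, 15.6% and 0.6% of all genes were called. DESeq2 called 2, 4 and 1 ligands in these classes. Ccl4 was higher with Pdcd1 in CD8 T cells (1.91, adjusted p = 0.0329) and CD4 T cells (2.44, adjusted p = 0.0059). With Pdcd1, Ccl3 was higher in CD8 T cells (3.01, adjusted p = 0.0308) and Cxcl13, the ligand of CXCR5, in CD4 T cells (2.63, adjusted p = 0.0212). Cxcl13 varied widely between libraries, at 13.9 ± 15.5 CPM in Pdcd1+ and 3.38 ± 5.603 CPM in Pdcd1- CD4 T cells. Ccl4 stood at 136 ± 102 CPM in Pdcd1+ and 24.5 ± 24.5 CPM in Pdcd1- CD4 T cells. In CD8 T cells Ccl4 stood at 111 ± 33.9 CPM in Pdcd1+ and 31.2 ± 22.3 CPM in Pdcd1- cells. B against T cells showed 1 higher and 4 lower of 21 tested, beside 54.7% of all genes. For ligands in Treg against CD4 T cells edgeR called 0 of 21 and DESeq2 2. At an unadjusted edgeR p under 0.05 there were 3, beside 2162 of 12136 genes.

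Of the genes that carry or end the receptors' signal, a list of 31 with 29 in the tables, B against T cells showed 4 higher and 15 lower of 29 tested, macrophages against T cells 9 higher and 8 lower of 29 tested, and CD8 T against CD4 T cells 1 higher and 3 lower of 29 tested. Of all genes 54.7%, 36.4% and 10.4% were called in these comparisons. Rgs16, which shortens G-protein signals, was higher in CD8 T than in CD4 T cells (0.80, adjusted p = 0.00112), lower in B cells (-4.24, adjusted p = 2.32e-11) and higher with Pdcd1 in CD8 T cells (1.48, adjusted p = 4.26e-05) and CD4 T cells (1.48, adjusted p = 3.26e-05). Rgs10 was lower with Pdcd1 in both (-1.01, adjusted p = 3.15e-04 and -0.54, adjusted p = 0.0244), and Gng2, a G-protein gamma subunit, was higher (0.98, adjusted p = 4.45e-05 and 0.83, adjusted p = 9.66e-05). The whole list showed 6 higher and 2 lower of 28 tested with Pdcd1 in CD8 T cells and 4 higher and 2 lower of 28 tested in CD4 T cells, and DESeq2 called 9 and 7, beside 13.6% and 15.6% of all genes. With Pdcd1 in Treg edgeR called 0 of 28 and DESeq2 0, with 4 at an unadjusted p under 0.05, beside 1085 of 10839 genes. In Treg against CD4 T cells edgeR called 0 of 29 and DESeq2 1, with 6 at an unadjusted p under 0.05, beside 2162 of 12136 genes. Rgs1 was the 1 gene of the 3 lists whose Pdcd1 difference was called between Treg and CD4 T cells (-0.99, adjusted p = 0.0239).

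Over 24 sums (8 groups in 3 libraries: the 6 split T groups, B cells and macrophages), the genes most like each receptor by Pearson's r of log2(CPM + 1) were taken from 6885 genes, where sums of a library share their mice and differ in depth. For Cxcr6 they were Rgs16 (r = 0.98), Nrn1 (r = 0.97), Stk32c (r = 0.95), and for Ccr2 Gna15 (r = 0.94), Plaat3 (r = 0.92), Rac1 (r = 0.92). For Cxcr3 they were 4930417O13Rik (r = 0.99), Zap70 (r = 0.99), Cd5 (r = 0.99), for Cxcr5 Scd1 (r = 0.99), Fcmr (r = 0.98), Ublcp1 (r = 0.97), and for Ccr6 Ighd (r = 0.98), Tnfrsf13c (r = 0.97), Ebf1 (r = 0.97). Those of Cxcr4 were Ptbp3 (r = 0.88), Ppig (r = 0.86), Casp8 (r = 0.86), those of Ccr8 Neb (r = 0.94), Uhrf2 (r = 0.91), Ptpn5 (r = 0.90) and those of Cx3cr1 Ctsd (r = 0.93), Metrnl (r = 0.92), Rhoc (r = 0.91). Ccr9 had the lowest top value, with Nosip (r = 0.63), Ern1 (r = 0.62), Tmx4 (r = 0.61).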

How the data were processed

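The deposited matrices hold raw UMI counts per gene and cell, which the authors made with Cell Ranger 6.0.1 from 10x 3' libraries against mm10 (per the labels), with no normalisation. Cells were kept at 1000 UMIs and under 10% mitochondrial UMIs. No doublet caller was run here, whereas the study used DoubletFinder, so cells with UMIs of a second lineage stayed in and were left out in an alternative. UMIs were summed per library and class (at least 10 cells) and tested with edgeR 4.0.16 (filterByExpr, TMM, glmQLFit and glmQLFTest, Benjamini-Hochberg, threshold 0.05) in 1 fit of 15 class sums and 1 of 18 Pdcd1-split sums. DESeq2 1.42.0 was an alternative, as were RLE scaling, no low-count filter, no block, each library left out, the limits the study set on cells (UMIs below 6000, genes from 200 to 5000, ribosomal share above 5% and mitochondrial share below 5%), cells thinned to 2000 UMIs before classing, and the removal of mixed cells.

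The library pairs the sums, since the classes of a library come from the same pooled mice. Deviations from class means correlated at r = 0.03 to 0.68 within a library in the class fit and 0.22 to 0.69 in the split fit. Between libraries r ran from -0.57 to 0.38 and from -0.56 to 0.36, so the ranges overlapped. Centring on class means lowers the values between libraries by construction. The receptors, classes and gene lists were chosen with earlier results of these data known. All 9 receptors were fitted in every comparison, but not every result is printed. The called genes named from a list were picked from up to 4 of largest fold change per comparison, and some of these are not named. Per receptor the 3 genes most correlated with it are given, among genes of at least 20 mean CPM in 1 of the groups. Genes that are not reported here were left out of the marker and receptor lists. The fits recovered planted changes in simulated data, where the planted log2 changes were 1 or more and no spread was shared within a library. Power for smaller changes and error rates in the real sums were therefore not tested. Coordinates are from GENCODE M21 on GRCm38, and counting intervals and limits from 0 UMIs cover counting error only. The SE of a log2 fold change is its absolute value divided by the square root of edgeR's F statistic, and its 95% interval is built from that SE. Such an SE is approximate and least reliable for receptors with few UMIs or a change near 0.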

Additional observations from a re-analysis of the deposited data

Results flagged for a closer look

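The Ccr2 difference between Pdcd1+ and Pdcd1- cells was not alike in Treg and CD4 T cells, as the test of the difference itself gave a log2 value of -1.25 (SE 0.23, 95% interval -1.74 to -0.76, edgeR adjusted p = 0.0204). By CPM, Ccr2 was higher in Pdcd1+ CD4 T cells in 3 of 3 libraries, at 1.06-fold, 2.43-fold and 2.13-fold, and lower in Pdcd1+ Treg in 3 of 3, at 0.604-fold, 0.682-fold and 0.822-fold. Shares of thinned cells kept neither direction in every library. They differed by -1.38, 3.79 and 3.30 percentage points in CD4 T cells and by -0.52, -2.06 and 0.22 points in Treg of replicates 1, 2 and 3. The adjusted p lay above 0.05 without replicate 2 or 3, without the library block and with cells thinned before they were classed, while the log2 value stayed between -1.50 and -1.02 over 11 alternatives. Depth moved with Pdcd1 more in Treg (median UMIs 10599 against 6601) than in CD4 T cells (6593 against 5499), and its part in the difference was not tested beyond the thinned fit. That fit held 30, 61 and 78 Pdcd1+ Treg in replicates 1, 2 and 3, where the main fit held 122, 359 and 442. It therefore had far fewer counts as well as equal depth.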

How the results depend on the processing

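Over the 81 results for a single receptor, 901 alternative fits gave the same call in 788, lost it in 63, gained one in 49 and turned the sign of a call in 1, Ccr9 in Treg against CD4 T cells, at -0.27 with cells thinned before they were classed. In 41 of the fits with the same call, the sign of an uncalled difference changed. Another edgeR scaling (RLE) changed none of the 81 calls. Calls kept under all alternatives run were those of Ccr2 in Treg against CD4 T, of Cxcr6 and Ccr2 with Pdcd1 in CD8 T, of Cxcr6 with Pdcd1 in CD4 T, and of all receptors called in B against T except Ccr9. Those of Cxcr3, Cxcr6 and Cx3cr1 in macrophages were also kept, but on fewer libraries in some settings. Macrophages of replicate 2 were absent from the thinned fit and the fit without mixed cells. Within the study's cell limits only those of replicate 1 remained, which cannot show whether a call holds. The cause of the other changes was not tested. The level of a receptor as the mean over cells of its CPM per cell stayed within 1 SD of the level of the sum for 28 of 45 receptor and class pairs. The library count, the 68 macrophages and UMI depth limit what could be seen: Ccr8 rests on 27 UMIs in CD8 T cells, a class at 0 UMIs is known only up to its limit, and cells without a Pdcd1 UMI are not cells without PD1.

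The main fits keep the library as a block, because classes of a library come from the same pooled mice. Without the block the pairing was ignored and the comparisons of CD8 T and Treg against CD4 T, B and macrophages against T, Pdcd1 in CD8 T, CD4 T and Treg, and the differences in the Pdcd1 effect of CD8 T and Treg from CD4 T called 0, 2, 8, 4, 2, 1, 0, 0 and 0 receptors and 395, 106, 4600, 4166, 180, 180, 1, 0 and 0 of all genes, where the main fits called 5, 4, 8, 4, 4, 5, 0, 0 and 1 receptors and 1264, 694, 6639, 4420, 1472, 1693, 65, 0 and 35 genes.

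Leaving out 1 library at a time, CD8 T against CD4 T called 1 to 6 receptors and 406 to 1553 genes, Treg against CD4 T 1 to 5 and 122 to 1104, B against T 7 to 9 and 4651 to 7060, and macrophages against T 3 to 6 and 3046 to 3743. Pdcd1 in CD8 T cells called 2 to 5 and 347 to 1774, in CD4 T cells 1 to 5 and 361 to 2315, and in Treg 0 to 2 and 1 to 227. The differences in the Pdcd1 effect called 0 to 0 receptors and 0 to 108 genes for CD8 T and 0 to 3 and 0 to 390 for Treg. In most of these comparisons the counts were highest without replicate 1.

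DESeq2 called 3 receptors and 1363 genes in CD8 T against CD4 T, and 2 receptors and 120 genes in the Treg difference. It called 110 genes with Pdcd1 in Treg and 22 for the CD8 T difference. With no filter on low counts, 8 receptors and 1748 genes were called in CD8 T against CD4 T, and 3 receptors and 304 genes with Pdcd1 in Treg. This setting called 1 receptor and 161 genes for the CD8 T difference, and 3 receptors and 380 genes for the Treg difference. In Treg against CD4 T it called 1144 genes. Within the study's cell limits, CD8 T against CD4 T called 3 receptors and 725 genes, the Treg difference 2 receptors, and macrophages 1443, Pdcd1 in CD8 T 750, Pdcd1 in Treg 25 and the CD8 T difference 14 genes. With cells thinned before they were classed, Pdcd1 called 2 receptors and 275 genes in CD8 T cells and 2 and 554 in CD4 T cells. The Treg difference called 0 receptors and 11 genes. Only Cxcr3, Cxcr4, Cxcr6 and Ccr2 were tested in this thinned fit of the split classes. The class comparisons called 635 genes in CD8 T and 421 in Treg against CD4 T, 3910 in B and 1985 in macrophages, which lacked replicate 2. Pdcd1 at 2 or more UMIs against 0 called 1 receptor and 84 genes in Treg. Without the cells of mixed lineage Pdcd1 in CD4 T cells called 8 receptors and 1764 genes. Both remaining settings were added after seeing the data. The 3 T classes fitted alone called 8 receptors and 2368 genes in CD8 T and 1563 genes in Treg against CD4 T. Without the Siglech-carrying cells the Treg difference held 2 receptors and 34 genes.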

Other observations

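Cells that met no class rule carried between 15.3% (Ccr6) and 72.1% (Ccr9) of a receptor's UMIs. The 252 cells with Ncr1, an NK-cell receptor gene, and no Cd3e or Siglech measured 275 ± 91.1 CPM of Ccr2, 219 ± 75.9 CPM of Cxcr6 and 305 ± 9.92 CPM of Cxcr4, and held 1 UMI each of Ccr6, Ccr8 and Ccr9. The 665 cells with Cd3e and Trdc, the constant gene of the delta T-cell receptor chain, measured 258 ± 40.04 CPM of Cxcr6 and 109 ± 6.36 CPM of Ccr2. Both groups lay above CD8 T cells for these 2 receptors in mean level, and the Cxcr6 range of the Ncr1-positive cells, 132 to 275 CPM, included the CD8 T level. Ccr2 was also high in the Siglech-positive cells at 402 ± 211 CPM. The 159 cells with Flt3, a dendritic cell gene, and without Cd3e, Siglech or Ncr1 measured 81.8 ± 18.5 CPM of Ccr6 and 6.69 ± 7.90 CPM of Ccr2. These single-gene gates were drawn after the levels of the 5 classes were known, and no test was run on them.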
